A study of Mus musculus with 8 samples.

Results

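The genes described here encode 5 sialic acid binding receptors of the Siglec family, Siglecf, Siglece, Siglecg, Cd22 and Cd33, and the paired inhibitory receptor PIR-B, encoded by Pirb. The 6 genes were chosen by name, and all 6 were found among the 15917 genes of the table. RNA was sequenced from mouse blood eosinophils, granule-bearing leukocytes of type 2 immunity, after 18 h in culture. The 8 libraries form 4 groups with 2 replicates each. Cells of the first experiment were given IFN-γ and TNF-α at 15 ng/mL (E1) or no cytokine (CN). In the second experiment they were given IL-5, GM-CSF and IL-4 at 10 ng/mL with IL-33 at 30 ng/mL (E2), or IL-5 alone at 10 ng/mL (E0).

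All groups shared the C57BL/6 strain and the kind of donor mouse, which the protocol names as IL-5 transgenic (line NJ.1638) while the genotype label reads WT. As background, this line makes IL-5 from a T cell promoter and so has many blood eosinophils. Cells were enriched by removing CD90-positive and B220-positive cells, and purity above 97% by stain is given. The labels give no age and no sex, and they do not say whether the libraries of a group came from separate animals. Y-linked transcripts were found in every replicate 1 library and Xist in every replicate 2 library, so a difference of sex is part of the replicate spread. The libraries of a group thus came from different donors, though whether each held 1 animal or a pool is not given. The p-values measure the spread between these libraries, in which donor, sex and technical differences cannot be told apart.

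Siglecs read sialic acid, the sugar that caps most glycans of vertebrate cells. Most of the receptors described here carry immunoreceptor tyrosine-based inhibitory motifs (ITIMs) in their cytoplasmic tails, which recruit the phosphatases SHP-1 and SHP-2 once Src family kinases have phosphorylated them. Siglec-F is the usual surface marker of mouse eosinophils, is the functional counterpart of human Siglec-8, and triggers eosinophil death when it is cross-linked. PIR-B binds MHC class I molecules and is encoded beside a family of activating PIR-A receptors that share much of its sequence.

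All 6 genes lie on chromosome 7 of mm10 and are annotated as protein-coding. Siglecf (ENSMUSG00000039013, 43351341 to 43359531), Siglecg (ENSMUSG00000030468, 43408204 to 43418358), Cd33 (ENSMUSG00000004609, 43524216 to 43544428) and Siglece (ENSMUSG00000030474, 43651070 to 43660161) stand in one cluster of 308.8 kb. Cd22 (ENSMUSG00000030577) lies apart from it at 30865402 to 30880342, and Pirb (ENSMUSG00000058818) at 3711409 to 3720391. Of these, Cd22 alone overlaps an annotated gene on the other strand, the antisense RNA Gm29439.

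Within the 250 bases before the annotated start, Siglecf and Cd33 shared a run of 16 bases on the same strand, shown in capitals. They are printed because this run was found in 2 of the 32851 start sites of the RefSeq promoter table, which are these 2 genes.
Siglecf, chr7:43351091-43351340, plus strand: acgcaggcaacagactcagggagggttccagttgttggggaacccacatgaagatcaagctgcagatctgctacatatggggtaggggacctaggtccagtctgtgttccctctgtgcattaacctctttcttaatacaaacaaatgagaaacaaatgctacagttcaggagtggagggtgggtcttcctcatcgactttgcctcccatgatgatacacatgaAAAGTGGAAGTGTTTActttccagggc
Cd33, chr7:43533172-43533421, minus strand: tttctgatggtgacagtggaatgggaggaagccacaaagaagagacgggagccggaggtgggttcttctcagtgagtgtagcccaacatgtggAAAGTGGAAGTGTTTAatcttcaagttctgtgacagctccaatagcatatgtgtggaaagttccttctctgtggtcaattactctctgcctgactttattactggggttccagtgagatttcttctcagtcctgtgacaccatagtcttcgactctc

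Both sequences are from RefSeq on GRCm38.p6, written 5′ to 3′ on the gene's strand. The run covers bases 27 to 12 before the start of Siglecf and bases 157 to 142 before the start of Cd33. It holds a motif of the type bound by the ETS factor PU.1, which was searched on both strands after the sequences had been seen and which 0.843% of the start sites contain. The RefSeq start used for Cd33 lies inside the longer span that GENCODE gives the gene. The longest run shared by any other pair of the 6 genes had 10 bases. Searched on both strands, the STAT motif TTCNNNGAA (7.02% of start sites), the STAT6 spacing of that motif (5.85%), the core of the interferon-stimulated response element (2.98%) and the GATA motif AGATAA (9.99%) had no match in these windows of the 6 genes. That says only that these letters are not in these windows.

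Levels are in CPM, counts relative to the TMM-scaled library size, and a mean ± SD is over both replicates (n = 2). Levels of different genes are compared per kilobase of annotated exon. Where libraries of 2 groups are said not to overlap, this describes the values, and the share of all genes so parted was not counted. The libraries held 60809057 to 95065752 counts. Siglecf, Siglecg and Pirb were abundant, and Cd22 was the rarest of the 6 except in E1. Per kilobase, Siglecf stood at 267 ± 21.6 CPM in E1, 348 ± 17.1 in CN, 330 ± 9.39 in E2 and 272 ± 0.737 in E0, and it ranked 143rd, 85th, 76th and 96th among 12273 protein-coding genes in these groups. Siglecg stood at 150.5, 252, 220 and 164 CPM per kilobase in E1, CN, E2 and E0, and Pirb at 206, 224, 163 and 179.9. Cd33 had 2.01 to 10.6 CPM per kilobase and Cd22 had 0.492 to 3.18 over the group means.

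**Figure D1:**
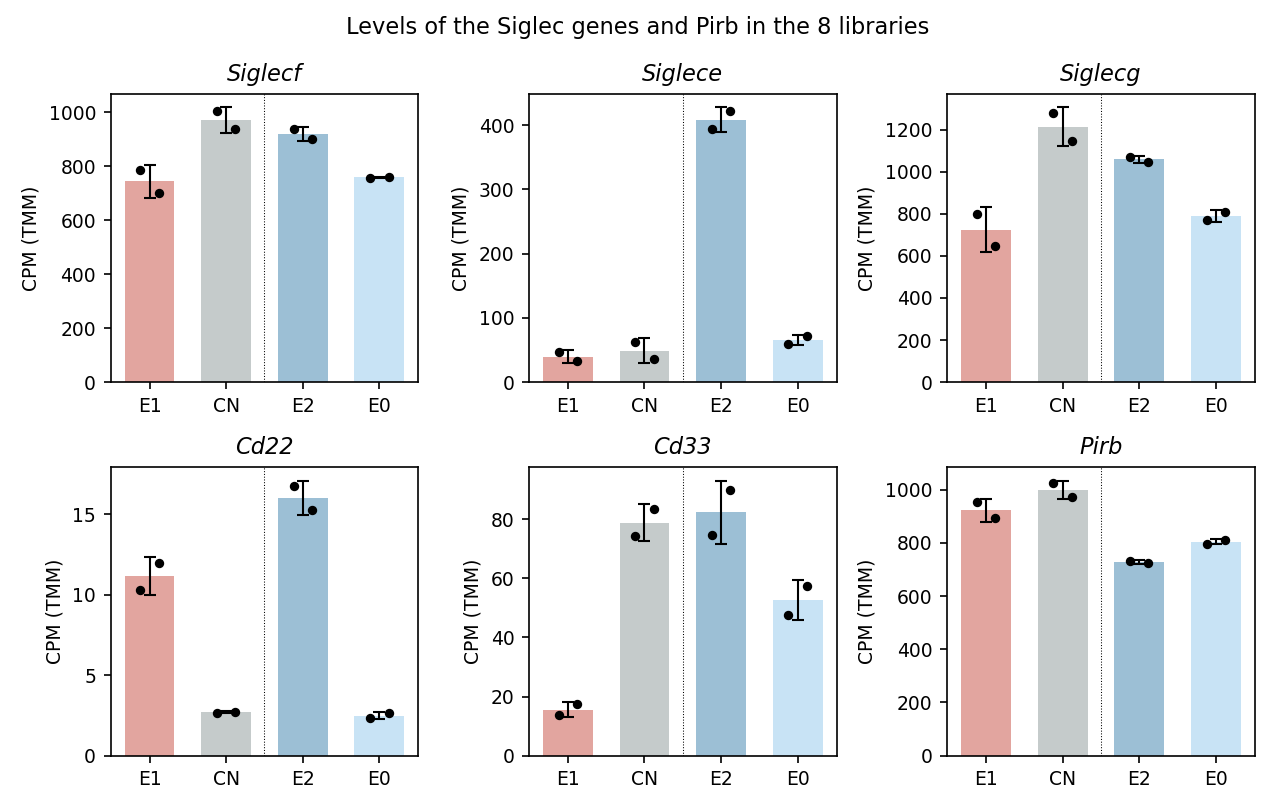
Level of each gene in CPM with TMM scaling, on a linear axis from 0. Bars are means, error bars SD (n = 2) and points libraries, with replicate 1 to the left, and the dotted line parts the first experiment from the second. Siglece is high in E2, Cd33 is low in E1, and Cd22 is high in E1 and in E2.

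The first comparison asked what IFN-γ and TNF-α did to these receptors. In E1, Cd33 fell about 5-fold and Siglecg and Siglecf fell less, while Cd22 rose about 4-fold. Siglece and Pirb were not called. The threshold for a call was an adjusted p of 0.05 by edgeR's quasi-likelihood test, with Benjamini-Hochberg adjustment across the 15913 genes tested, and fold changes are given as log2 ± standard error (SE). Of all genes tested, 17.3% were called, 9.19% higher and 8.08% lower, and of the 6 receptor genes 1 was higher, 3 were lower and 2 were not called. Their median log2 fold change was -0.35, against -0.01 over all genes tested.

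Cd33 encodes a myeloid Siglec whose mouse form differs from the human one in its cytoplasmic tail. It had 13.7 and 17.4 CPM in the E1 libraries, against 74.4 and 83.4 CPM in the CN libraries. Both E1 libraries were far below both CN libraries. The change was -2.34 ± 0.15, or 5.07-fold lower (adjusted p = 2.2e-05), and E1 held the lowest Cd33 of the 4 groups, which span both experiments. Markers of other myeloid cells moved in the same libraries. The 12 neutrophil markers summed to 1923 and 1423 CPM in E1, against 3167 and 2783 CPM in CN, with 6 called lower and 1 called higher. The 1 called higher was Ly6g, a defining neutrophil marker, with 64.3 and 62.15 CPM in E1, against 6.60 and 7.05 CPM in CN (9.26-fold). The 16 markers of mononuclear phagocytes summed to 5536 and 5211 CPM in E1, against 1042 and 927 CPM in CN, most of it in E1 from Ly6c2, while the macrophage marker C1qc was near 0 (0.131 and 0.314 CPM in E1, against 0.0738 and 0.0481 CPM in CN). The part of such cells in the Cd33 fall was not tested.

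Siglecg encodes Siglec-G, known from B cells, where it restrains antigen receptor signalling, and as a receptor for CD24. It had 799 and 648 CPM in E1, against 1279 and 1147 CPM in CN. The groups did not overlap, and the change was -0.75 ± 0.11 (adjusted p = 0.00242), a 1.68-fold lower level. Siglecf had 786 and 701 CPM in E1, against 1004 and 937 CPM in CN. Here too the libraries did not overlap, and the change was smaller, at -0.38 ± 0.09 (1.31-fold lower, adjusted p = 0.0174). Siglecf did not pass without CN replicate 1 (-0.32, adjusted p = 0.103), without E1 replicate 2 (-0.30, adjusted p = 0.0742) or with the 4 libraries of this comparison alone (adjusted p = 0.0787). Each alternative run gave a lower Siglecf in E1.

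Cd22 encodes CD22, the Siglec that restrains antigen receptor signalling in B cells. It had 10.3 and 11.98 CPM in E1, against 2.66 and 2.73 CPM in CN, from 862 and 879 counts against 252 and 227. Both E1 libraries were several times above both CN libraries, with a change of 2.05 ± 0.14 (4.14-fold, adjusted p = 2.46e-05). Gm29439, the antisense RNA whose exon overlaps Cd22, changed with it (1.93 ± 0.27, adjusted p = 0.00169). Its level was low, at 1.46 and 1.91 CPM in E1, against 0.379 and 0.505 CPM in CN (36 and 42 counts). The library kit is stranded, but the strand setting of the counting is not given in the sources used here, so reads of the gene and its antisense RNA cannot be told apart.

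Of 14 B cell markers in the table, 1 was called lower in this comparison (Bank1, -0.81) and 13 were not called. Among those not called, Igkc, an immunoglobulin light chain gene, had 13.9 and 13.4 CPM in E1, against 7.04 and 9.53 CPM in CN, with no overlap (0.72, adjusted p = 0.0635). Their summed level was 375 and 304 CPM in E1, against 441 and 391.5 CPM in CN. Most of that sum was Ighm, and Ms4a1, which encodes the B cell antigen CD20, was near 0 at 0.585 and 1.10 CPM in E1, against 0.864 and 1.09 CPM in CN. In bulk samples, fewer cells of a type and less RNA per cell cannot be told apart.

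Siglece encodes Siglec-E, an ITIM receptor of neutrophils, monocytes and macrophages. It had 46.9 and 32.5 CPM in E1, against 62.9 and 35.3 CPM in CN. The groups overlapped, and the change of -0.31 ± 0.26 was not called (adjusted p = 0.486). Without CN replicate 1 it was 0.18. Pirb had 953 and 892 CPM in E1, against 1024 and 975 CPM in CN. These libraries did not overlap, but the change of -0.12 ± 0.08 was small and was not called (adjusted p = 0.373).

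**Figure D2:**
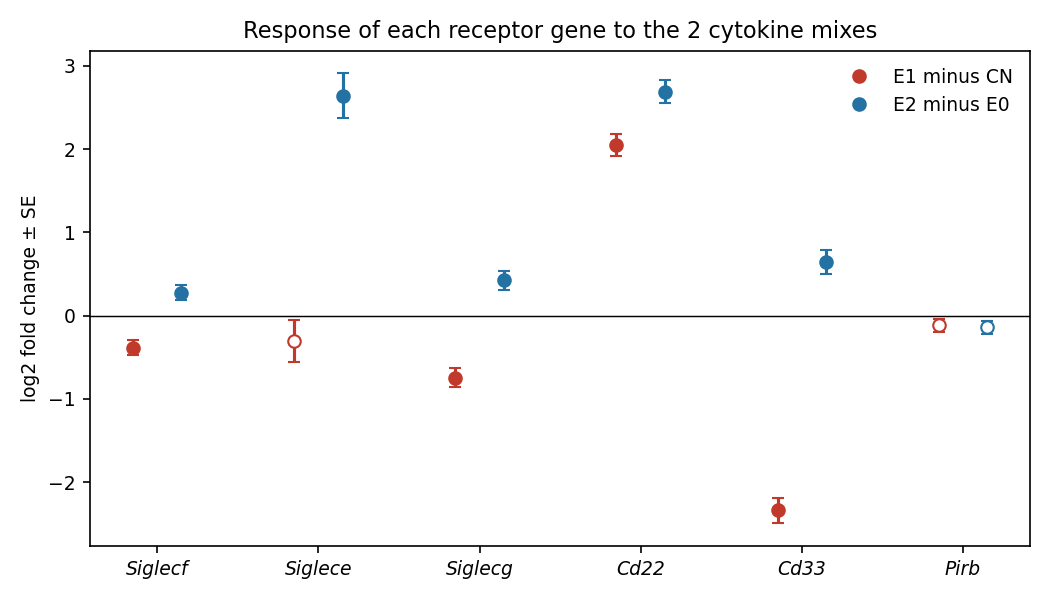
Log2 fold change ± SE of each gene, E1 minus CN to the left and E2 minus E0 to the right of each pair. Filled points were called and open points were not, and Cd33, Siglecg and Siglecf stand below 0 in the first comparison and above 0 in the second.

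The second comparison asked what GM-CSF, IL-4 and IL-33 added to IL-5. All 5 Siglec genes rose in E2, Cd22 and Siglece by over 6-fold and the other 3 by less than 2-fold, and Pirb was not called. Over all genes 35.5% were called, 17.0% higher and 18.5% lower, and of the 6 receptor genes 5 were called higher and 1 was not called. The median of the 6 genes was 0.54, against -0.02 over all genes tested.

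Siglece had 395 and 422 CPM in E2, against 59.7 and 71.1 CPM in E0. The E2 libraries lay far above the E0 libraries, with 33645 and 32817 counts against 3712 and 5954. The change was 2.64 ± 0.27 (6.24-fold, adjusted p = 0.000233). Per kilobase Siglece reached 221 ± 10.5 CPM in E2, against 35.4 ± 4.33 CPM in E0. Its rank among protein-coding genes was 121st in E2, against 1165th in E0.

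Markers of the other cells known for Siglece did not all move the same way. Of 12 neutrophil markers, 5 were called lower and 7 were not called, and their summed level was 973 and 1387 CPM in E2, against 2836 and 3571 CPM in E0. Of the 16 markers of mononuclear phagocytes, 6 were called higher and 8 lower, with sums of 1738 and 1665 CPM in E2, against 1026 and 1065 CPM in E0. Csf1r and Adgre4 held most of these sums, while C1qc was near 0 at 0.141 and 0.141 CPM in E2, against 0.885 and 1.44 CPM in E0. Of 8 basophil and mast cell markers, 3 were called higher and 5 were not called, with sums of 96.76 and 75.02 CPM in E2, against 59.6 and 48.4 CPM in E0. The 3 were the mast cell protease gene Cma1 (9.87-fold), the basophil protease gene Mcpt8 (3.56-fold) and Gata2 (1.55-fold). Cma1 had 6.36 and 6.88 CPM in E2, against 0.644 and 0.692 CPM in E0. The part of other cells in the Siglece result, and in the rises of the other Siglec genes in E2, was not tested.

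Cd22 had 16.8 and 15.3 CPM in E2, against 2.33 and 2.63 CPM in E0. The groups were far apart, and the change was 2.69 ± 0.14 (6.45-fold, adjusted p = 8.96e-06). Gm29439 again changed alike, at 2.60 ± 0.28, with 2.71 and 2.24 CPM in E2, against 0.370 and 0.442 CPM in E0. Of the 14 B cell markers, 2 were called higher, Ms4a1 (2.09-fold, 8.22 and 6.24 CPM in E2, against 3.38 and 3.55 in E0) and Cd79b (1.82-fold), and 2 were called lower, Ighm (-1.08) and Fcmr (-1.48). The summed level of the 14 was 332 and 303 CPM in E2, against 456 and 442 CPM in E0. The part of B cells in the Cd22 rise was not tested.

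**Figure D3:**
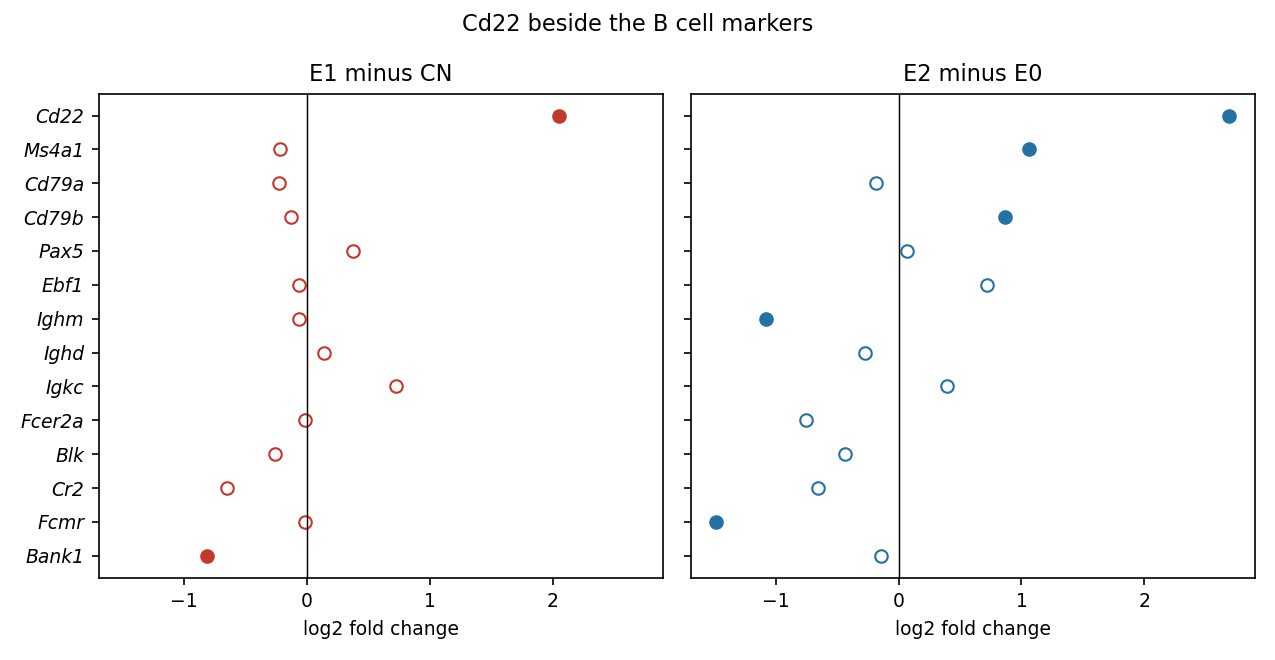
Log2 fold change of Cd22 and of 13 of the 14 B cell markers, E1 minus CN on the left and E2 minus E0 on the right, with filled points called. Cd22 stands at 2.05 and 2.69, above each marker shown in both panels.

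The other 3 Siglec genes rose by smaller amounts. Cd33 had 74.7 and 89.9 CPM in E2, against 47.8 and 57.3 CPM in E0, with no overlap (0.65 ± 0.15, 1.57-fold, adjusted p = 0.0101). Siglecg had 1070 and 1048 CPM in E2, against 769 and 809 CPM in E0 (0.42 ± 0.11, 1.34-fold, adjusted p = 0.0202). Siglecf had 938 and 901 CPM in E2, against 757 and 760 CPM in E0 (0.28 ± 0.09, 1.21-fold, adjusted p = 0.0379). Each of these 3 was higher in both E2 libraries than in both E0 libraries, given without the share over all genes, which was not counted. Their calls were less firm than those of Siglece and Cd22. Leaving out any 1 library of this comparison ended the Siglecf and Siglecg calls (adjusted p of 0.0971 to 0.168 for Siglecf and 0.06 to 0.115 for Siglecg), and the Cd33 call was lost without E0 replicate 1 (0.0682) and without E2 replicate 2 (0.0785).

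Pirb had 734 and 724 CPM in E2, against 797 and 812 CPM in E0. The E2 libraries were lower without overlap, but the change was -0.14 ± 0.08 and was not called (adjusted p = 0.186). Siglecf rose while other eosinophil markers fell, since 8 of the 10 others in that list were called lower in E2, among them Epx (-1.73) and Prg3 (-2.29), and 1, Adgre1, was called higher (0.49). The defining eosinophil receptor gene Ccr3 was present throughout, at 2083 and 1977 CPM in E1, 2058 and 2097 in CN, 1191 and 1318 in E2, and 2590 and 2561 in E0.

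The test of the difference between the responses took E1 minus CN away from E2 minus E0, which share no library. Over all genes 25.2% were called, 11.3% with a positive difference, and among the receptors 5 of 6 were called, all positive. The difference was 2.99 ± 0.21 for Cd33 (adjusted p = 3.88e-05), 2.95 ± 0.37 for Siglece (0.000821), 1.17 ± 0.16 for Siglecg (0.00126) and 0.66 ± 0.12 for Siglecf (0.00555). These 4 kept their call whichever library was left out. For Cd22 the difference was 0.64 ± 0.19 (adjusted p = 0.0404), a call that was lost in 7 of the 8 fits that left out 1 library, with adjusted p of 0.0569 to 0.146, and with limma-voom (0.0671). For Pirb it was -0.03 ± 0.11 (adjusted p = 0.889).

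Ordered by level, Siglecf and Siglecg ran alike, highest in CN, then E2, E0 and E1. For Siglecf the libraries of CN and E2 overlapped, as did those of E0 and E1, whereas for Siglecg the E0 and E1 libraries did. Siglece stood highest in E2, and E0, CN and E1 overlapped with their neighbours. Cd22 was highest in E2, then E1, and CN and E0 were low. Cd33 was highest in E2 and CN, which overlapped, followed by E0 and then E1. Pirb was highest in CN, then E1, E0 and E2, with no overlap between neighbours. In these orders, a step between CN or E1 and E0 or E2 crosses the experiments, so group and experiment cannot be told apart there.

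Comparing E0 with CN crosses the experiments, so that IL-5 and the experiment cannot be told apart. Over all genes 25.4% were called, and of the receptors Siglecg (-0.62), Cd33 (-0.59), Siglecf (-0.36) and Pirb (-0.31) were called lower in E0 and 2 were not called. Without E0 replicate 1 only Siglecg was called among them, and without E0 replicate 2 only Siglecg and Cd33. The adjusted p of Siglecg was 0.0436 and 0.0287 in these fits. Without CN replicate 1 Siglecf and Pirb were not called and Siglece was called higher in E0 (0.89, adjusted p = 0.0233), and without CN replicate 2 Cd33 was not called. Scaled by library totals alone, Pirb missed the threshold (adjusted p = 0.0529).

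The makeup of the Siglec transcripts changed with Siglece. Summed over the 5 genes, the level was 1656 and 1411 CPM in E1, 2423 and 2206 in CN, 2494 and 2476 in E2, and 1636 and 1701 in E0. Per kilobase, Siglece took 27.2% and 29.1% of the sum in the E2 libraries, against 6.87% and 7.89% in the E0 libraries. It took 5.32% and 4.31% in E1, against 5.08% and 3.16% in CN. Siglecf took 42.8% and 41.2% in E2, the lowest of any group, and 53.7% to 61.6% in the other libraries. The ratio of Siglecg to Siglecf per kilobase was 0.59 and 0.536 in E1, against 0.739 and 0.711 in CN, and 0.663 and 0.675 in E2, against 0.589 and 0.618 in E0.

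**Figure D4:**
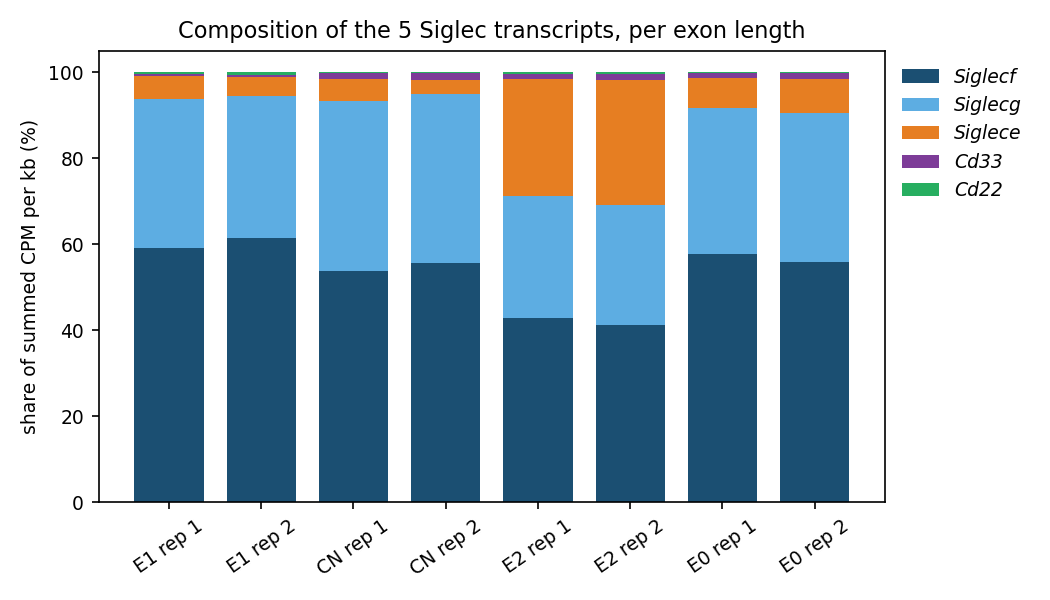
Share of each Siglec gene in the summed CPM per kilobase of the 5 genes, 1 bar per library. The Siglece share is 27.2% and 29.1% in E2 and at most 7.89% in the other libraries.

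Pirb shares sequence with the PIR-A genes next to it, and how reads that match several of them were counted is not given in the sources used here. Between Pirb and Lilra6, which RefSeq also lists as Pira3, the table held 9 genes on the same strand over 204.1 kb. Apart from Pirb, 8 genes were tested. In E1 versus CN, 4 of these 8 were called lower and 0 higher, and in E2 versus E0, 5 were called higher and 0 lower. For comparison, 8.08% of all genes were called lower in E1 and 17.0% higher in E2. Lilra6 had 628 and 565 CPM in E1, against 1073 and 938 CPM in CN (-0.75 ± 0.10, adjusted p = 0.000898). It had 956 and 904 CPM in E2, against 536 and 538 CPM in E0 (0.79 ± 0.10, adjusted p = 0.000534). Lilra6 was thus called lower in E1 and higher in E2, beside a Pirb that was called in neither comparison.

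Adding Pira2 and Lilra6 to Pirb as 1 feature gave a called fall of 0.38 in E1 (adjusted p = 0.0245) and a called rise of 0.31 in E2 (adjusted p = 0.0319). The sum includes the called rises of Lilra6 and Pira2 in E2, and the effect of reads shared among these genes was not tested. The other listed partner genes were tested too. Fcer1g, the signalling chain that PIR-A receptors need, rose in E1 (408 ± 9.35 CPM, against 281 ± 9.57 in CN, 0.53) and in E2 (396 ± 30.3, against 262 ± 19.1 in E0, 0.60). Tyrobp, which encodes the adaptor DAP12, fell in E2 (714 ± 2.98 CPM, against 1047 ± 20.6 in E0, -0.55). Of the 6 genes of this list in the table, 1 rose and 1 fell in E1, and 3 rose and 3 fell in E2. The share called over all genes was 17.3% in E1 and 35.5% in E2.

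**Figure D5:**
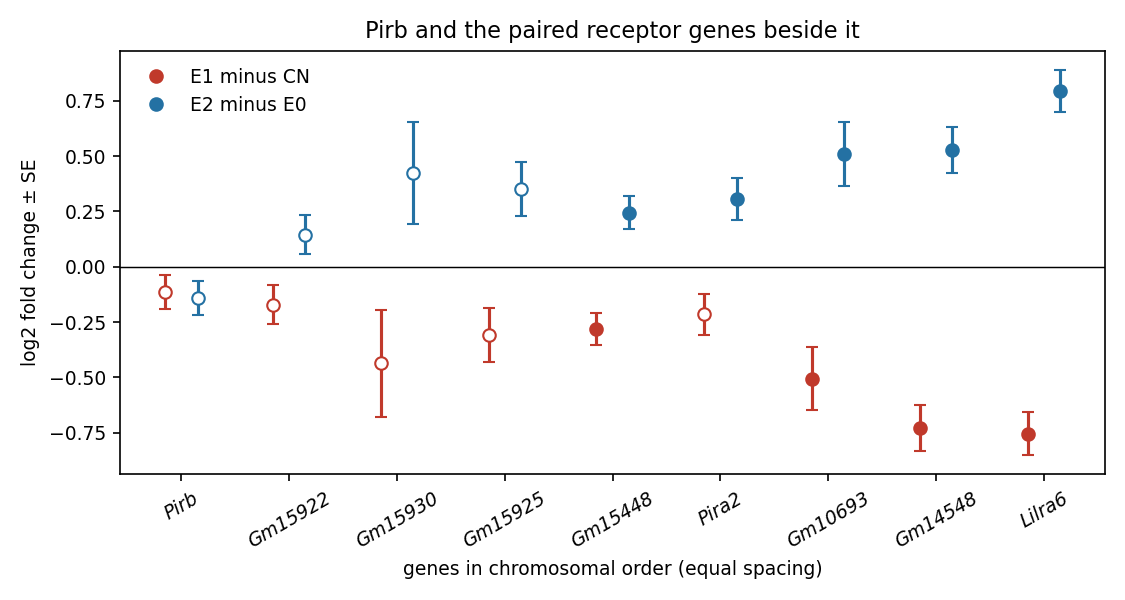
Log2 fold change ± SE of Pirb and the 8 genes tested beside it, in chromosomal order at equal spacing, E1 minus CN to the left and E2 minus E0 to the right of each pair, with filled points called. All 9 genes stand below 0 in the first comparison, and all but Pirb stand above 0 in the second.

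The neighbours within the cluster of Siglecf, Siglecg, Cd33 and Siglece were mixed. In E1, 1 of 8 was called higher and 3 lower, and in E2 5 were called higher and 1 lower. Over all genes, 9.19% were called higher and 8.08% lower in E1, and 17.0% higher and 18.5% lower in E2. Ceacam18, the gene next to Siglece on the other strand, changed by -0.58 ± 0.15 in E1 (adjusted p = 0.0362) and by 2.87 ± 0.15 in E2 (adjusted p = 9.03e-06). The annotation gives no overlap between the 2 genes. Of the 3 genes tested from Cd22 to Mag besides Cd22, 2 were called higher in E1 and 3 in E2. Both counts include Gm29439, whose reads cannot be told apart from those of Cd22. D7Ertd128e, which lies between Cd22 and Mag on the other strand, rose by 1.98 ± 0.27 in E1 (adjusted p = 0.00142) and by 4.21 ± 0.33 in E2 (adjusted p = 6.37e-05). Its level was low, with a mean of 1.165 CPM over the 8 libraries. Mag, the Siglec gene of myelin at the end of this stretch, had 34.1 and 27.1 CPM in E1, against 31.0 and 24.8 CPM in CN, which was not called, and rose to 38.2 ± 3.38 CPM in E2, against 25.2 ± 0.592 in E0 (1.52-fold). Of the other Siglec genes, Siglec1, known from macrophages, was below 1 CPM in E1 and CN and fell in E2 (0.745 ± 0.0745 CPM, against 1.36 ± 0.121 in E0).

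By likeness over the 8 libraries, after the mean of each experiment was taken away from the log2 CPM, Siglecf and Siglecg resembled each other with r = 0.991. Over 8515 genes with at least 10 CPM, the genes nearest to Siglecf were Tnfrsf18 (r = 0.994), Relt (0.993) and Anxa2 (0.992), and to Siglecg Tnfrsf18 (0.997), Nek6 (0.996) and Anxa2 (0.994). Nearest to Cd33 were Rbpj (0.987), Usp46 (0.985) and Impa2 (0.985), and to Pirb Tgfbi (0.990), Tkt (0.990) and Camkk1 (0.987). Siglece was nearest to Fh1 (0.998), Sephs1 (0.997) and Magt1 (0.997), which changed far less, by 0.31 to 0.59 in E2. These neighbours depend on the centring. Without it, 0 of the 3 genes stayed among the nearest 3 for Siglecf, Siglecg and Pirb, and 1 of 3 stayed for Siglece and Cd33. The libraries fall into 4 groups, so these correlations describe which genes share a pattern of group means and no more.

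Other receptors listed as inhibitory on myeloid cells, not all of which carry an ITIM, moved in the same cultures. Of 19 in the table, 4 rose, 3 fell and 12 were not called in E1, and 9 rose, 1 fell and 9 were not called in E2. Among all genes tested, 17.3% were called in E1 and 35.5% in E2. Lair1, a collagen receptor, rose in E1 to 149 ± 13.0 CPM, against 12.5 ± 3.65 in CN (11.9-fold), and in E2 to 23.4 ± 0.856 CPM, against 5.76 ± 0.066 in E0 (4.07-fold). Pilra, whose product binds sialylated proteins, rose in E2 to 498 ± 3.88 CPM, against 21.2 ± 6.98 in E0 (23.5-fold). Fcgr2b, the inhibitory IgG receptor, fell in E1 (633 ± 78.2 CPM, against 1052 ± 172 in CN) and Sirpa, which binds CD47, fell in E2 (1412 ± 42.3, against 1743 ± 27.9 in E0). The median of the list was -0.12 in E1 and 0.40 in E2.

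Of 21 genes whose products phosphorylate ITIMs or act at them, 6 rose and 1 fell in E1, and 9 rose and 2 fell in E2. The share called over all genes was 17.3% in E1 and 35.5% in E2. The Src family kinase Fgr rose in both, to 501 ± 2.91 CPM in E1, against 284 ± 32.4 in CN, and to 549 ± 5.37 CPM in E2, against 284 ± 7.80 in E0. Socs3, which has been found at the ITIM of human CD33, fell in E1 (-0.55) and rose in E2 (1.49). Pag1, a membrane adaptor that holds the kinase Csk, fell in E2 (9.89 ± 2.40 CPM, against 38.7 ± 10.4 in E0).

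For the sugars that Siglecs bind, 28 genes listed for the synthesis, transfer, modification or removal of sialic acid were in the table. Not all of them make these sugars, since the list also holds Neu1 and Neu3, which remove sialic acid, and other glycan enzymes such as Gcnt1. In E1, 4 of the 28 rose and 6 fell, Gcnt1 (-0.472) among the latter, and in E2, 8 rose and 8 fell. Beside these counts, 17.3% of all genes were called in E1 and 35.5% in E2. St3gal4, which adds sialic acid in the α2,3 linkage, rose in E2 to 536 ± 14.5 CPM, against 202 ± 1.48 in E0 (2.65-fold). St6gal1, which makes the α2,6 linkage that CD22 prefers, rose in E2 to 31.4 ± 1.12 CPM, against 18.2 ± 2.13 in E0 (1.72-fold). St8sia4, a polysialyltransferase gene, fell in E2 to 29.7 ± 3.29 CPM, against 186 ± 10.8 in E0 (6.28-fold lower). St3gal6 fell in E1 (1.10 ± 0.357 CPM, against 5.44 ± 0.543 in CN) and in E2 (0.920 ± 0.00958, against 4.25 ± 1.58 in E0).

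Among 7 genes of described ligands, 3 rose in E1 and 1 rose and 1 fell in E2, where 17.3% and 35.5% of all genes were called. The class I genes H2-K1 (6.19-fold) and H2-D1 (2.57-fold), whose products bind PIR-B, and B2m (6.56-fold) rose in E1. In E2, B2m rose (1.63-fold) and H2-D1 fell (1.47-fold lower). Cd24a, the gene of the Siglec-G ligand CD24, was called in neither comparison.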

How the data were processed

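The authors deposited a table of raw, unscaled counts with Ensembl gene IDs. Per the submitters' processing notes, STAR, featureCounts and the mm10 build were used. Their versions, the annotation, the strand setting and the handling of reads that map to several places were not given in the sources used here. Of 15918 rows, 1 had no gene name, equalled the column totals (100% of the named counts) and was left out. Symbols matched 15730 of the 15917 gene IDs. Positions and exon lengths are from GENCODE M21 on mm10.

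Genes were tested with edgeR 4.0.16 in R 4.3.3, using filterByExpr (4 genes removed), TMM scaling, a mean for each group fitted to the 8 libraries together, and the quasi-likelihood F test on 4 residual degrees of freedom. SE is the absolute log2 fold change divided by the square root of F. The steps were tested on simulated data. Reads without molecular identifiers are not independent molecules. Each of the 6 receptor genes passed the filter. The named genes of other lists were, in each direction, up to 3 called genes with the largest change and at least 1 CPM in the higher group, or up to 2 abundant genes where none was called, and not all of them are printed. Genes that neighbour the receptor genes were named after their values were seen. Alternatives were DESeq2 1.42.0, limma-voom (limma 3.58.1), other scalings and filters, a replicate block, the 4 libraries of a contrast alone, summed PIR genes and leaving out each library. Some marker genes of the lists are not reported here by name. The receptor genes and the lists were chosen with earlier results of these data known.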

Additional observations from a re-analysis of the deposited data

How the results depend on the processing

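For the 6 receptor genes in the 4 comparisons, 335 of 378 refitted values kept direction and call, 30 lost the call, 5 gained it and 8 changed sign. The sign changes were Siglece in E1 versus CN without CN replicate 1 (0.183, with a range of -0.662 to 0.183 when 1 library was left out), Pirb in E2 versus E0 summed with Pira2 and Lilra6 (0.306) or over the locus (0.321, added after the data were seen), and the Pirb difference of responses with library totals alone (0.051), without CN replicate 2 (0.008), without E1 replicate 1 (0.021, with a range of -0.079 to 0.021) and with the summed features (0.683 and 0.718). The cause was not tested. Library totals alone shifted the median of all genes in E1 versus CN to -0.105 from -0.014 and moved 7 of 24 group levels by more than their SD, by at most 6.72%. Calls of the receptor genes numbered 2 to 5 in E2 versus E0 (main 5) and 1 to 4 in E0 versus CN (main 4) when 1 library was left out, and calls over all genes 3334 to 5929 (main 5655) and 2235 to 4274 (main 4038).

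The replicate number was tried as a block within each experiment. The labels do not say that it pairs the libraries, but it goes with the sex-linked transcripts in every group. The block thus also takes up the difference of sex, which the main fit leaves in the spread. Deviations of same-numbered libraries correlated across genes with r = 0.499 between E1 and CN and r = 0.586 between E2 and E0. With the replicate block 5520 genes were called instead of 2749 in E1 versus CN, 8514 instead of 5655 in E2 versus E0 and 6821 instead of 4018 in the difference. Each experiment had its own block, so in that fit E0 minus CN compared fitted replicate 1 levels alone. That is another quantity than the main contrast. Siglece there was 0.037 instead of 0.413, and 6113 genes were called instead of 4038. The refitted values counted above include those of this fit. No receptor gene lost a call under the block, and Siglece in E1 versus CN (adjusted p = 0.0173) and Pirb in E2 versus E0 (adjusted p = 0.0167) gained one, both lower.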
